A study of Mus musculus with 12 samples.

Results

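The genes described here make cholesterol, fatty acids and triglycerides in the liver, move sterols between compartments, and control that synthesis. They were chosen by name: 41 genes were listed, and a gene entered if a probe set on the array carried its symbol and no other. By that rule 31 of the 41 were on the array, of 8251 genes with such a probe set. A total of 30 lay above the intensity floor on enough arrays to be tested, of 6976 genes tested. Insig1, whose protein holds the sterol sensor in the endoplasmic reticulum, was below the floor on every array, at 14.3 to 18.6 units. Acat2, Pmvk, Srebf2, Insig2, Acaca, Fads2, Agpat2, Soat1, Soat2 and Lipc had no such probe set, so their expression was not analysed here. The tested genes were 5 of the 7 named for the mevalonate steps, 8 of 8 from squalene to cholesterol, 2 of 5 regulators, 3 of 4 for fatty acid synthesis, 5 of 6 for desaturation and elongation, 5 of 6 for triglyceride assembly and export, and 2 of 5 for sterol esters and transport.

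Total RNA of whole mouse liver was hybridised to 12 one-colour Affymetrix arrays, in 6 groups of 2. The control mice carried no albumin-cre transgene and had 1 wild-type and 1 floxed Socs3 allele, written albumin-cre(-) Socs3(w/fl). The Socs3-deleted mice were albumin-cre(+) Socs3(-/fl), with 1 null and 1 floxed allele. The Cre recombinase is driven there by the albumin promoter, which is active in hepatocytes, so other liver cells keep the floxed allele and carry the null one. Control and Socs3-deleted mice were injected intraperitoneally with PBS or interleukin-6 (IL-6). The third genotype, Interferon-gamma-/- (Ifng-null below), was injected with PBS or interferon-γ (IFN-γ), and all livers were taken at 4 h. Ages, sexes, strains and doses are not in the labels. The labels do not say that the 2 arrays of a group came from separate mice, so a p-value here measures only the spread between these arrays, which may be technical. SOCS3 is the feedback inhibitor of IL-6 signalling through STAT3, and the design asks how its loss changes the response to IL-6.

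Cholesterol is built from acetyl-CoA through mevalonate, farnesyl diphosphate, squalene and lanosterol, and the genes of this chain are activated together by the sterol-sensing factor SREBP-2 when cell sterol is low. Fatty acid synthesis is driven in the liver mainly by insulin and feeding, through SREBP-1c, the main hepatic product of Srebf1, and through the carbohydrate-response factor ChREBP. Fatty acids are joined to glycerol 3-phosphate by an acyltransferase, a phosphatase of the lipin family and a diacylglycerol acyltransferase, and the triglyceride leaves the liver in very-low-density lipoprotein.

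The promoters of these genes were searched for motifs of the factors known for this control. Of the 41 genes, 32 matched the RefSeq promoter table (build GRCm38.p6), in which a gene can have several starts. Among the 32 were Insig1 and all genes without a probe set except Soat2, so the windows are not those of the tested genes alone. The 250 bases before each start were searched on both strands. The NF-Y box CCAAT stood in 26 of the 44 windows of these genes, which is 59.1%, against 33.8% of all 32851 windows. The Sp1 box GGGCGG also stood in 26 windows, against 32.7% of all windows. The sterol regulatory element TCAC-N-CCAC, with N any base, stood in 1 window (2.27%, against 1.05%), that of Hmgcs1. Fdps, Sqle, Fdft1, Scd1, Scd2, Fads1, Npc1, Dgat1 and Soat2 had no entry among the promoters, so they were searched for none of these motifs. The E-box CACGTG stood in 6 windows, which is 13.6%, against 6.02% of all windows. The 4 windows below belong to Gpam, the gene called in the most comparisons, and to 3 sterol genes of different steps, which were all higher on replicate 2 than on replicate 1 of the Socs3-deleted PBS group. Each is written 5′ to 3′ on the gene's strand, ends at the base before the start, and has the matches of these motifs in capitals (ATTGG and CCGCCC are the NF-Y and Sp1 boxes read on the other strand).
Gpam, chr19:55127239-55127488, minus strand: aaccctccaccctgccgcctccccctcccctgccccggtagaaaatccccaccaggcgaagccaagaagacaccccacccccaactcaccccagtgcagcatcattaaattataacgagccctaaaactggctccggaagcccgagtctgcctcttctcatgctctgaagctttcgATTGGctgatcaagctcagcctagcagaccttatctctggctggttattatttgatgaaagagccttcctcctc
Hmgcs1, chr13:119690101-119690350, plus strand: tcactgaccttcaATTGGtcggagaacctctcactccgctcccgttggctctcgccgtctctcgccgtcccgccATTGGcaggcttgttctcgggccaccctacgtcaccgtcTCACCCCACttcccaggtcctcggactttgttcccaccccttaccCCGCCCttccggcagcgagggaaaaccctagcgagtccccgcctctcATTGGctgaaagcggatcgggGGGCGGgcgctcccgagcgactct
Idi1, chr13:8885356-8885605, plus strand: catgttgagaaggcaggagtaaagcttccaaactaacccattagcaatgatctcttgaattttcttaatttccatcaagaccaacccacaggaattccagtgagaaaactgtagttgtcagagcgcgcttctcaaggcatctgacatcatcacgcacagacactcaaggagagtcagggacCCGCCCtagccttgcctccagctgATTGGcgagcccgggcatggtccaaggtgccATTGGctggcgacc
Nsdhl, chrX:72918271-72918520, plus strand: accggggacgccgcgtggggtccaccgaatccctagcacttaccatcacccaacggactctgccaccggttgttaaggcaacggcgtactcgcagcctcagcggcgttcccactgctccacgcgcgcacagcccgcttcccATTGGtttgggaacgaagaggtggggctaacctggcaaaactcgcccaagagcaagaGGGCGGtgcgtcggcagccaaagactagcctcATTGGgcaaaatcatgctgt
In these windows Hmgcs1 held 1 sterol regulatory element, beginning 137 bases before the start, with 3 NF-Y boxes and 2 Sp1 boxes around it. Idi1 held 2 NF-Y boxes, 45 and 14 bases before the start, and 1 Sp1 box. Nsdhl held 2 NF-Y boxes, 109 and 20 bases before the start, and 1 Sp1 box. The Gpam window, the outer of 2 starts, held 1 NF-Y box, 74 bases before the start. A match is a description of the letters only, and none of these arrays measured binding.

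Before the results, 2 arrays have to be named. The summed intensity of 10 pancreatic acinar markers (of 16 listed) was 1505 to 1752 units on 10 arrays. It was 9036 on replicate 2 of the control PBS group and 21751 on replicate 2 of the Socs3-deleted PBS group. The log2 differences of named genes (of the 1 probe set that stands for each) and the branch medians that use those arrays are therefore given with all arrays and then without the 2, with 10 arrays left and the lone PBS array of each genotype assumed to vary like the other groups. Hepatocyte markers were present throughout, with 11 of 12 on the array and a sum of 53340 to 70230. Of 8 adipocyte markers on the array 5 lay above the floor on any array, with a sum of 3489 to 5323, and Adipoq, Pparg and Cidec stayed below it. The sum of 11 macrophage markers ran from 2906 to 5519 and was highest on replicate 1 of the Socs3-deleted IL-6 group. One of them, Cd14, the lipopolysaccharide co-receptor, was called higher in the same 4 comparisons in which Gpam or Npc1 was called lower. It read 775 and 842 in Socs3-deleted livers after IL-6 and 229 to 328 on the other 10 arrays, a difference of 1.34 ± 0.13 after IL-6 in Socs3-deleted livers (adjusted p = 0.00121, limma) and of 1.44 ± 0.13 against control livers after IL-6 (adjusted p = 0.000868, limma). These were 1.31 and 1.44 without the 2 arrays (adjusted p = 0.0459 and 0.00836, limma). The other 10 macrophage markers had no call. The sum of 4 erythroid markers ran from 766 to 7176 and that of 6 intestinal markers from 587 to 2026. The erythroid sum was highest on the 2 arrays with high pancreatic signal (7176 and 5549), and higher on replicate 2 in every group. Hba-a1, an alpha-globin, was 4.34 log2 higher on replicate 2 of the control PBS group and 1.53 higher on that of the Socs3-deleted PBS group. In the latter group the other erythroid markers were lower on replicate 2. Of the intestinal markers Tff3, a trefoil peptide of mucus, read 1709 and 781 in Socs3-deleted livers after PBS and 237 to 455 on the other 10 arrays, and was called higher in Socs3-deleted livers averaged over both injections (1.33 ± 0.24, adjusted p = 0.046 in limma; 1.62 and 0.0568 without the 2 arrays). Only 3 of these 6 intestinal markers rose above the floor on any array. Fabp2 and Fabp6, also above it, were lower in the same average over both injections (-0.30 and -0.04, neither called). The part of these other cells in the results was not tested, and in whole liver fewer cells of a type and less RNA per cell cannot be told apart. Array medians were 80.6 to 85.7 units, replicate arrays correlated at 0.987 to 0.993, and both Socs3 probe sets were lower on all 4 Socs3-deleted arrays (52.6 to 68.4 and 74.4 to 106) than on all 4 control arrays (78.8 to 113 and 117 to 167). Ifng was below the floor on all 12 arrays, so it checks no label.

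In the triglyceride branch, Gpam fell after IL-6 in Socs3-deleted livers, and all 5 tested genes of the branch had lower means there. Gpam, the mitochondrial glycerol-3-phosphate acyltransferase, makes the first acylation of glycerolipid synthesis. Its intensity, replicate 1 first and replicate 2 second here and below, was 879 and 721 in control livers after PBS, 625 and 679 in control livers after IL-6, 755 and 540 in Socs3-deleted livers after PBS, 329 and 253 in Socs3-deleted livers after IL-6, 789 and 731 in Ifng-null livers after PBS, and 512 and 428 in Ifng-null livers after IFN-γ. The Socs3-deleted arrays after IL-6 were the lowest pair of the 12 and overlapped no other group. The group mean was 291 ± 54.2 (SD, n = 2) after IL-6 and 647 ± 152 (SD, n = 2) after PBS. The log2 change was -1.15 ± 0.19 (SE), 2.21-fold lower, with an adjusted p of 0.0246 in limma. In control livers Gpam was also lower on both IL-6 arrays than on both PBS arrays, but by -0.29 ± 0.19 (adjusted p = 1, limma), and by -0.43 without the 2 arrays. The difference between these responses was -0.86 ± 0.27 and did not pass (adjusted p = 0.965, limma), and was -0.96 without the 2 arrays.

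Gpam was 1 of 41 probe sets of these genes called in the IL-6 response of Socs3-deleted livers, where 1.17% of all 9641 probe sets were called and 0.145% were called lower. Without the 2 arrays with pancreatic signal the change was -1.39 ± 0.19, 2.62-fold lower, and its adjusted p was 0.0564 in limma. The call was also lost without replicate 1 of the Socs3-deleted PBS group (-0.90, adjusted p = 0.134 in limma) and without replicate 2 of the Socs3-deleted IL-6 group (-0.95, adjusted p = 0.136 in limma). With all arrays, at an unadjusted p under 0.05 in limma, 7 of the 30 genes differed, 6 of them lower, against 10.8% of all probe sets. Of all 30 genes 25 had a lower mean, with a median of -0.33, against 3506 of 6976 genes tested and a median of -0.001. Without the 2 arrays 19 had a lower mean and the median was -0.27. The groups were apart for 11 genes on the lower and 1 on the higher side, where 21.5% and 19.6% of all probe sets were so.

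**Figure D1:**
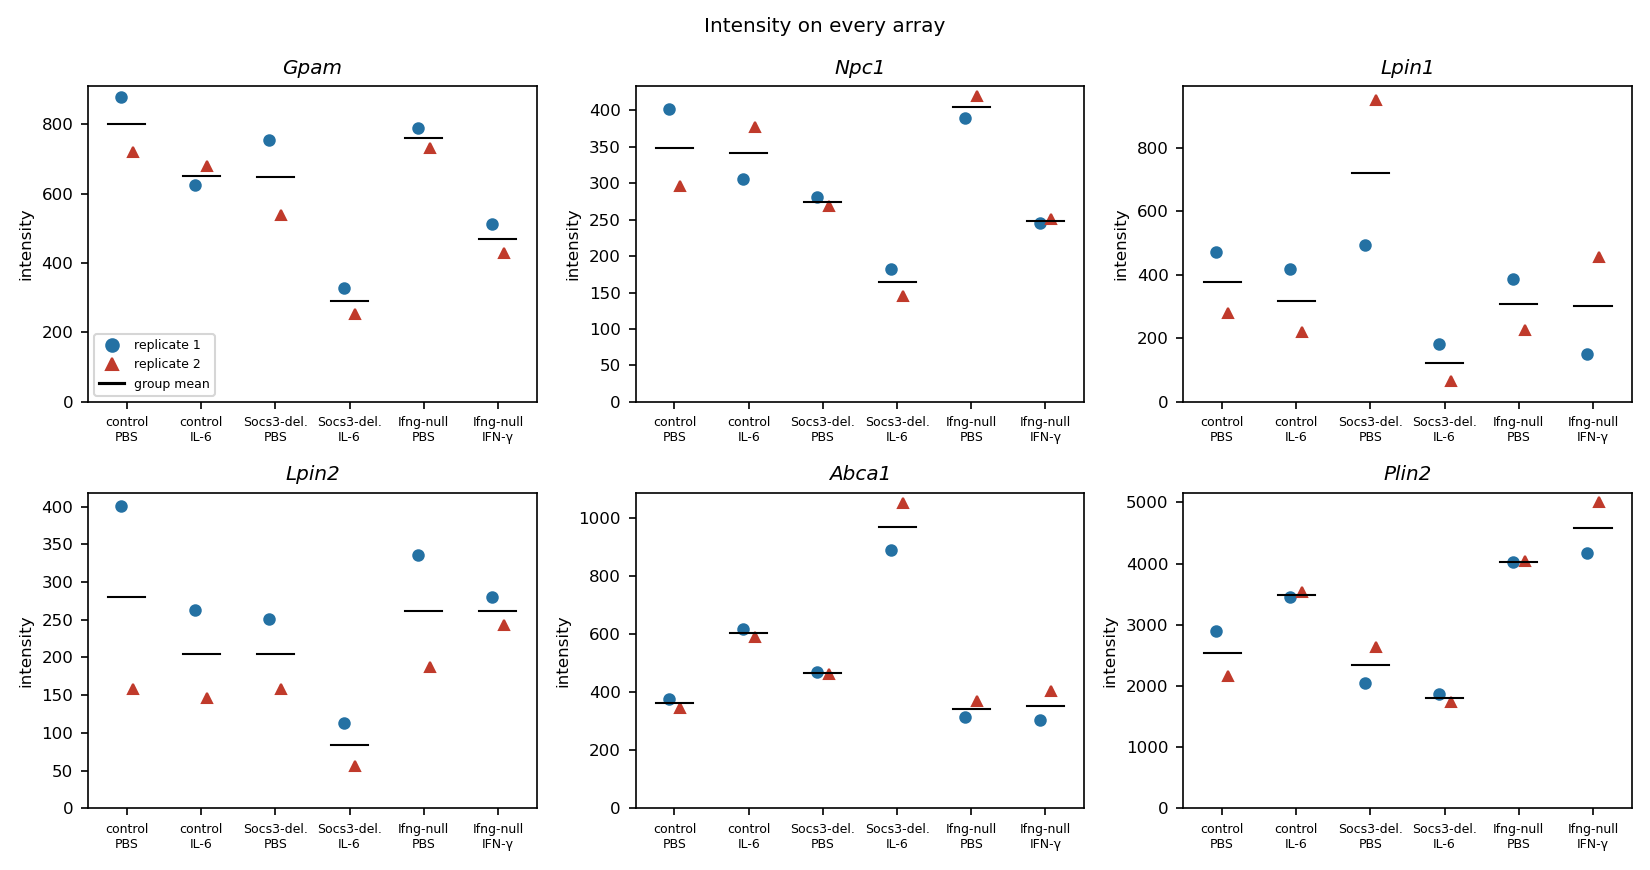
Deposited intensity (linear scale, arbitrary units) on each of the 12 arrays for Gpam, Npc1, Lpin1, Lpin2, Abca1 and Plin2, in 6 groups of 2; blue circles are replicate 1, red triangles replicate 2, and the black line is the group mean. Gpam is lowest on the 2 Socs3-deleted arrays after IL-6 (329 and 253), Npc1 is lowest on the same arrays (183 and 145), and Lpin1 spans 494 to 951 within the Socs3-deleted PBS group.

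The lipins convert phosphatidate to diacylglycerol, and Lpin1 had the largest difference of all 30 genes after IL-6 in Socs3-deleted livers without being called. Its intensity was 473 and 281 in control livers after PBS, 418 and 220 after IL-6, 494 and 951 in Socs3-deleted livers after PBS, 182 and 65.4 after IL-6, 388 and 227 in Ifng-null livers after PBS, and 150 and 456 after IFN-γ. Its replicates were far apart in every group, and the 2 Socs3-deleted groups did not overlap. The difference after IL-6 in Socs3-deleted livers was -2.65 ± 0.64 (adjusted p = 0.112, limma), and -2.18 without the 2 arrays. Lpin2, the other lipin on the array, read 401 and 158 in control livers after PBS, 263 and 146 after IL-6, 250 and 158 in Socs3-deleted livers after PBS, 113 and 55.8 after IL-6, 335 and 187 in Ifng-null livers after PBS, and 280 and 243 after IFN-γ. Its lowest pair was again the Socs3-deleted IL-6 pair, with a difference of -1.33 ± 0.51 (adjusted p = 0.362, limma), and -1.66 without the 2 arrays. Its second probe set stayed below the floor.

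Mttp, the microsomal transfer protein that loads lipid onto apolipoprotein B, was 66.8 and 83.5 in Socs3-deleted livers after PBS and 49.5 and 51.4 after IL-6, a difference of -0.57 ± 0.19 (adjusted p = 0.27, limma), and -0.40 without the 2 arrays. Dgat1, which adds the last acyl chain, stayed between 138 and 184 on all arrays, and its second probe set differed in the other direction there (0.16 against -0.20, neither called). Dgat1 differed by -0.28 without the 2 arrays. Over the 5 genes the median log2 difference in Socs3-deleted livers was -1.15 with all arrays and -1.39 without the 2 arrays. With all arrays 4 of the 5 had groups that did not overlap, all lower, where 21.5% of all probe sets were lower in that way. In control livers the branch median was -0.27 with all arrays and -0.43, with all 5 genes lower, without the 2 arrays. Where Gpam was called, the macrophage marker Cd14 was called in the other direction, and no other macrophage marker was called. After IL-6 in Socs3-deleted livers Cd68, Adgre1 and Clec4f had lower means (-0.07, -0.05 and -0.14), and the remaining macrophage markers had higher ones. The part of macrophages in the result was not tested.

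The sterol transport gene Npc1 fell in Socs3-deleted against control livers after IL-6. NPC1 is the membrane protein that passes cholesterol out of lysosomes. Its intensity was 402 and 296 in control livers after PBS, 307 and 378 after IL-6, 281 and 269 in Socs3-deleted livers after PBS, 183 and 145 after IL-6, 390 and 420 in Ifng-null livers after PBS, and 246 and 251 after IFN-γ. The Socs3-deleted IL-6 pair was the lowest, and the next lowest was that of Ifng-null livers after IFN-γ. Control livers after IL-6 had a mean of 342 ± 50.3 (SD, n = 2). Socs3-deleted livers after IL-6 had one of 164 ± 26.6 (SD, n = 2). The log2 difference was -1.06 ± 0.17, 2.09-fold lower, with an adjusted p of 0.0248 in limma.

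In this comparison Gpam was lower too, by -1.18 ± 0.19 or 2.26-fold (adjusted p = 0.0255, limma), so 2 of 41 probe sets were called, against 0.954% of all probe sets and 0.0934% called lower. Both calls were kept without the 2 arrays with pancreatic signal, at adjusted p = 0.0458 for Npc1 and 0.0361 for Gpam (limma). Npc1 lost its call without replicate 2 of the control IL-6 group (-0.91, adjusted p = 0.237 in limma) and without replicate 2 of the Socs3-deleted IL-6 group (-0.90, adjusted p = 0.13 in limma). Gpam lost its call without either control IL-6 array (adjusted p = 0.0894 and 0.23 in limma) and without replicate 2 of the Socs3-deleted IL-6 group (adjusted p = 0.134 in limma). The comparison shares its IL-6 arrays with the IL-6 response of Socs3-deleted livers, so the Gpam calls in both rest on the same pair. In that response Npc1 was lower by -0.76 ± 0.17, without a call (adjusted p = 0.0832, limma), and by -0.79 without the 2 arrays. Cd14 was called higher in the comparison where Npc1 was called lower, 10 of the 11 macrophage markers had higher means there (median 0.43), and their part was not tested.

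Of all 30 genes, 25 had a lower mean in Socs3-deleted than in control livers after IL-6, with a median of -0.19, against 3844 of 6976 genes tested and a median of -0.02. Both groups were apart for 12 genes on the lower and 3 on the higher side, where 23.2% and 17.9% of all probe sets were so. Me1, malic enzyme, which supplies NADPH for fatty acid synthesis, was 305 and 244 in control and 146 and 152 in Socs3-deleted livers, a difference of -0.87 ± 0.23 (adjusted p = 0.161, limma). It was lower after PBS as well, at 179 and 137 against 311 and 191 (-0.64 ± 0.23, adjusted p = 0.951 in limma, and -0.80 without the 2 arrays). Averaged over both injections, Gpam (-0.75, adjusted p = 0.046) and Npc1 (-0.70, adjusted p = 0.0409) were called lower by limma in Socs3-deleted livers, where 0.799% of all probe sets were called. Averaged over both genotypes, Gpam was called lower after IL-6 (-0.72, adjusted p = 0.0448, limma), where 1.06% were. Neither of these averages kept a call of these genes without the 2 arrays, with Gpam at -0.70 (adjusted p = 0.169) and Npc1 at -0.79 (adjusted p = 0.109) in the first, and Gpam at -0.91 (adjusted p = 0.0949, limma) in the second. With 1 array left out at a time, the call in the average over genotypes was kept only without replicate 2 of the Socs3-deleted PBS group or replicate 1 of the Socs3-deleted IL-6 group, and the other 10 arrays gave adjusted p of 0.0557 to 0.208 (limma). In the average over injections Gpam kept its call only without replicate 1 of either Socs3-deleted group, with 0.0546 to 0.178 for the other 10 arrays. Npc1 kept it only without control PBS replicate 2, control IL-6 replicate 1 or Socs3-deleted IL-6 replicate 1, with 0.0553 to 0.168 for the other 9.

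Lcat, the plasma enzyme that esterifies cholesterol on lipoproteins, was the other tested gene of the transport branch. It read 1633 and 1433 in control livers after PBS, 1487 and 2021 after IL-6, 1834 and 1988 in Socs3-deleted livers after PBS, 1304 and 1625 after IL-6, 1630 and 2187 in Ifng-null livers after PBS, and 1509 and 2161 after IFN-γ. No difference of it was called. After IL-6 in Socs3-deleted livers it was -0.39 ± 0.22 (adjusted p = 0.633, limma), and -0.33 without the 2 arrays. The difference between both IL-6 responses was -0.57 ± 0.31, and -0.42 without the 2 arrays. Its second, dimmer probe set had the other sign after IL-6 in Socs3-deleted livers (0.11, adjusted p = 0.917 in limma).

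**Figure D2:**
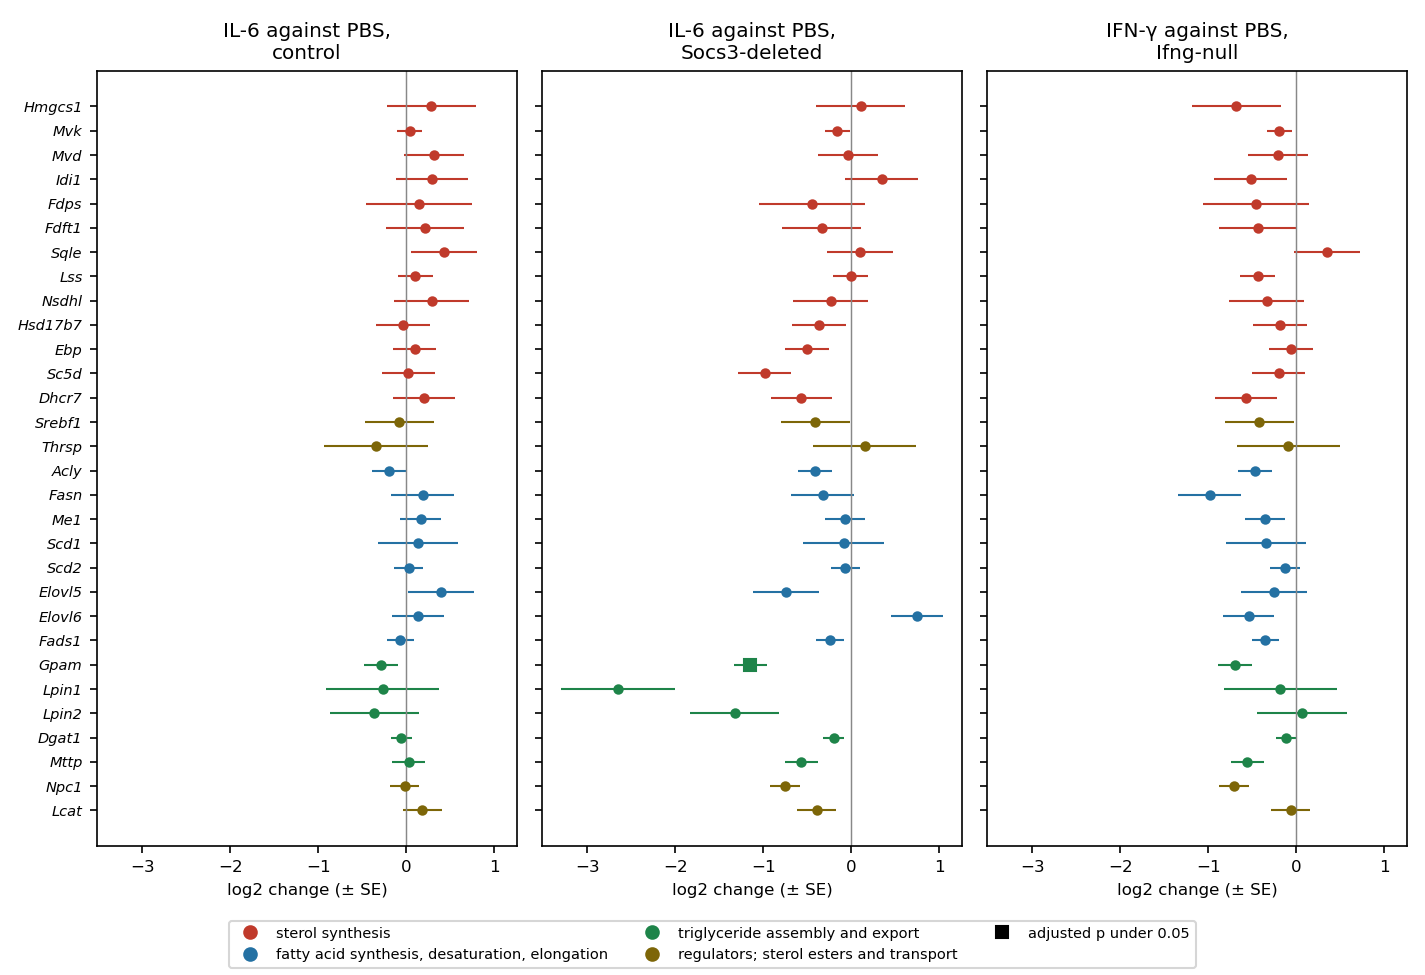
Log2 change ± SE for the 30 genes after IL-6 in control livers, after IL-6 in Socs3-deleted livers and after IFN-γ in Ifng-null livers, each against PBS, on 1 shared axis; colours mark the branch, and a square marks an adjusted p under 0.05 in limma. Gpam in Socs3-deleted livers (-1.15) is the single square, and 28 of the 30 points lie below 0 after IFN-γ.

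After IFN-γ in Ifng-null livers 28 of the 30 genes had a lower mean, with a median of -0.35, and none was called by limma. Over all genes tested 4334 of 6976 were lower and the median was -0.04, and 0.653% of probe sets were called. At an unadjusted p under 0.05 in limma 6 genes differed, all lower, against 6.93% of all probe sets. Same-numbered arrays of the 2 Ifng-null groups deviated together over all probe sets (r = 0.66), and with the replicate number as a block limma again called none of these genes. A total of 15 of the 30 genes were lower with no overlap between the groups and none higher, where 17.4% of all probe sets were lower and 9.8% higher in that way. These genes share arrays and regulators, so they are not independent replicates.

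The largest difference after IFN-γ was that of Fasn, the fatty acid synthase. Fasn read 675 and 581 in control livers after PBS, 830 and 614 after IL-6, 528 and 696 in Socs3-deleted livers after PBS, 719 and 326 after IL-6, 486 and 785 in Ifng-null livers after PBS, and 283 and 345 after IFN-γ. Both IFN-γ arrays were below both PBS arrays, with a difference of -0.98 ± 0.36 (adjusted p = 0.536, limma). Acly, which makes cytosolic acetyl-CoA from citrate, read 776 and 666 in control livers after PBS, 654 and 601 after IL-6, 830 and 672 in Socs3-deleted livers after PBS, 583 and 542 after IL-6, 730 and 1000.0 in Ifng-null livers after PBS, and 531 and 716 after IFN-γ. It was lower without overlap after the cytokine in all 3 genotypes, by -0.20, -0.41 and -0.47, with none of these called (adjusted p = 1, 0.509 and 0.652 in limma). The control and Socs3-deleted differences were -0.31 and -0.56 without the 2 arrays. Me1 was lower without overlap after IFN-γ as well (320 and 397 against 282 and 277). All 3 tested genes of fatty acid synthesis were thus lower in that way, where 17.4% of all probe sets were.

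Gpam, Npc1 and Mttp were lower after IFN-γ by -0.70 ± 0.19, -0.70 ± 0.17 and -0.56 ± 0.19, each without overlap (adjusted p = 0.285, 0.191 and 0.475 in limma). The lipins were not: Lpin1 differed by -0.18 ± 0.64 and Lpin2 by 0.06 ± 0.51. Whether the IFN-γ response differed from the IL-6 response was not tested, since the genotypes differ too.

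Among the desaturases and elongases no gene was called in any comparison. After IFN-γ 3 of 5 were lower without overlap, where 17.4% of all probe sets were. Elovl6, which extends palmitate to stearate, read 387 and 241 in control livers after PBS, 343 and 328 after IL-6, 206 and 230 in Socs3-deleted livers after PBS, 271 and 491 after IL-6, 248 and 355 in Ifng-null livers after PBS, and 199 and 208 after IFN-γ. It was the single gene of the 30 that was higher without overlap after IL-6 in Socs3-deleted livers, by 0.75 ± 0.30 (adjusted p = 0.378, limma) and by 0.82 without the 2 arrays, and its second probe set was higher too. After IFN-γ it differed by -0.54 ± 0.30 (adjusted p = 0.835, limma). Elovl5, an elongase of polyunsaturated fatty acids, read 2209 and 1838 in control livers after PBS, 2165 and 3232 after IL-6, 2767 and 1574 in Socs3-deleted livers after PBS, 865 and 1813 after IL-6, 2004 and 2632 in Ifng-null livers after PBS, and 1680 and 2210 after IFN-γ. After IL-6 it was lower in Socs3-deleted than in control livers by -1.08 ± 0.38 (adjusted p = 0.362, limma).

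Scd1, the main hepatic stearoyl-CoA desaturase, had its highest and its lowest value within 1 group, at 7934 and 2542 in Socs3-deleted livers after PBS. Its difference after IL-6 in these livers was -0.09 ± 0.46 with all arrays and -0.91 without the 2 arrays (adjusted p = 0.998 and 0.165 in limma). Its brightest 2 of 3 probe sets had the same sign in both cases, and the third, dim one was higher after IFN-γ (0.31) where the brightest was lower (-0.34), neither called. Scd2 lay near the floor, at 32.4 to 49.8. Fads1, the delta-5 desaturase, stayed between 590 and 890.

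The regulators did not pass in any comparison. Srebf1 read 767 and 1014 in control livers after PBS, 773 and 906 after IL-6, 1078 and 539 in Socs3-deleted livers after PBS, 841 and 392 after IL-6, 701 and 898 in Ifng-null livers after PBS, and 699 and 503 after IFN-γ. Its 2 Socs3-deleted replicates differed by about the same factor under both injections, and the difference after IL-6 there was -0.41 ± 0.39 (adjusted p = 0.874, limma). It was -0.91 ± 0.43 without the 2 arrays (adjusted p = 0.731, limma). Thrsp, a nuclear protein of lipogenic cells that follows thyroid hormone and carbohydrate, read 2028 and 904 in control livers after PBS, 1436 and 793 after IL-6, 1170 and 695 in Socs3-deleted livers after PBS, 1206 and 834 after IL-6, 709 and 1292 in Ifng-null livers after PBS, and 513 and 1578 after IFN-γ. In every group its replicates were further apart than the means of its PBS and cytokine groups in that genotype.

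The 13 genes of sterol synthesis did not pass in any comparison either, and in 5 of the 6 groups at least 10 of them differed in the same direction between the replicate arrays. Hmgcs1, the cytosolic HMG-CoA synthase that opens the pathway, read 463 and 294 in control livers after PBS, 525 and 384 after IL-6, 332 and 1233 in Socs3-deleted livers after PBS, 703 and 676 after IL-6, 308 and 466 in Ifng-null livers after PBS, and 210 and 266 after IFN-γ. The highest value of the 12 was thus on the Socs3-deleted PBS array with the pancreatic signal, 3.72-fold above its replicate. All 13 genes were higher on that array than on replicate 1 of its group, by a median log2 of 0.97 and a range from 0.08 for Ebp to 1.89 for Hmgcs1. Between the 2 Ifng-null PBS arrays 12 of 13 were higher on replicate 2 (median 0.61), and between the 2 IFN-γ arrays 12 of 13 were as well (median 0.44). In control livers the difference ran the other way, with 10 of 13 higher on replicate 1 after PBS (median -0.28) and 11 of 13 after IL-6 (median -0.36). Over all genes the medians of these replicate differences lay between -0.05 and 0.01. The exception was the Socs3-deleted IL-6 group, with 8 higher on replicate 2 and 5 on replicate 1 (median 0.14), from -0.30 for Sqle to 1.09 for Fdps. The control PBS array that also carried pancreatic signal was thus lower in these genes than its replicate, and the part of pancreatic RNA was not tested.

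**Figure D3:**
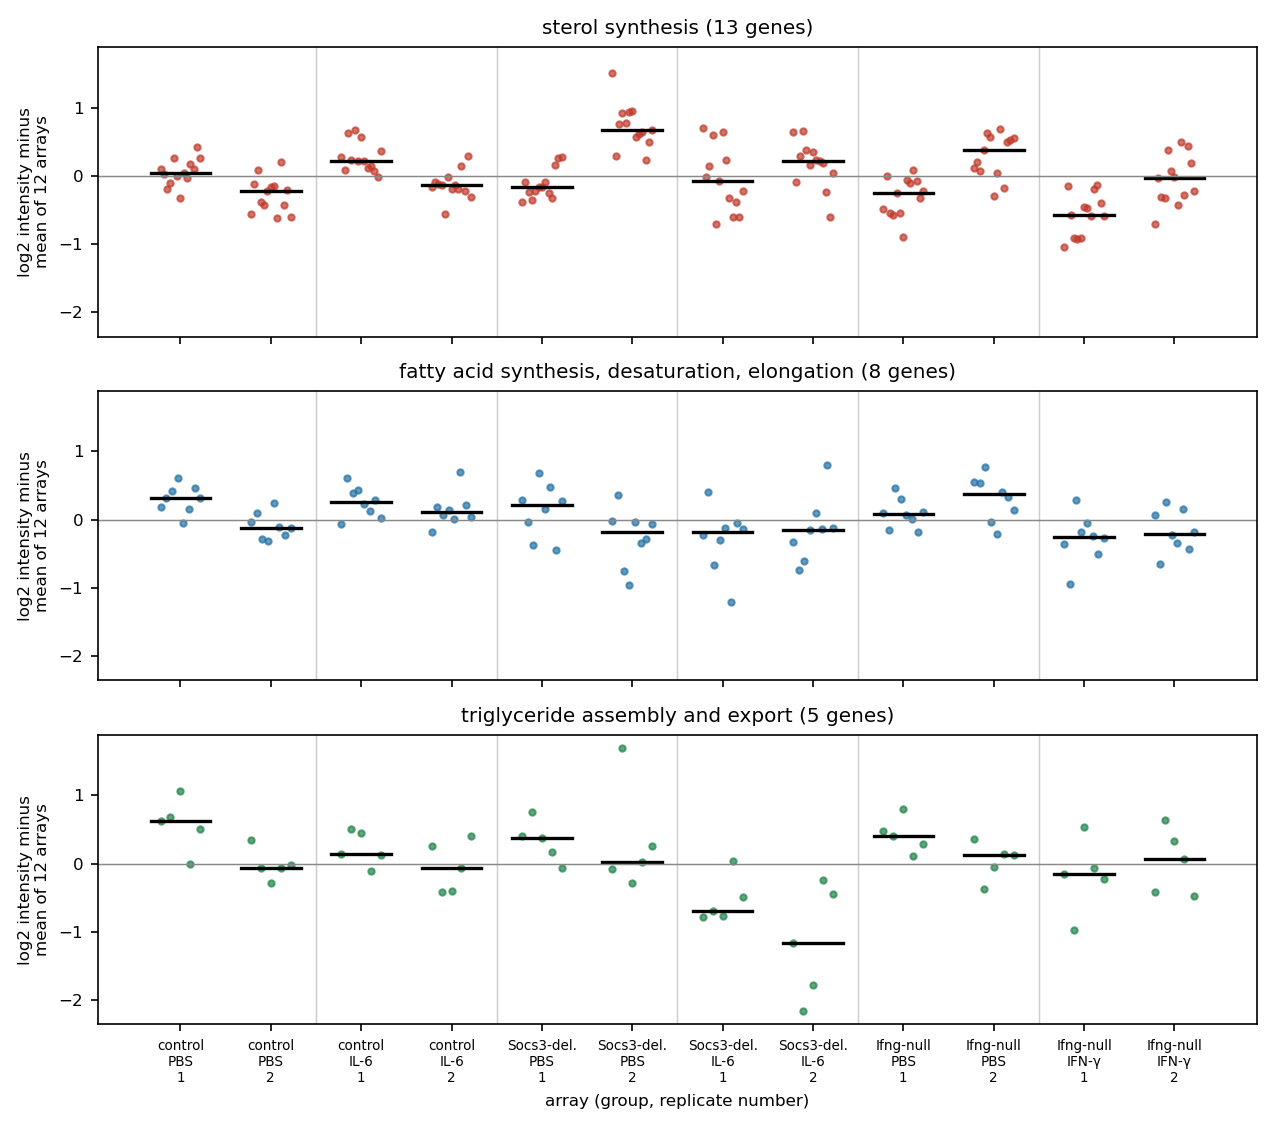
Log2 intensity of each gene minus its mean over the 12 arrays, for 13 sterol genes (top), 8 fatty acid genes (middle) and 5 triglyceride genes (bottom); each point is a gene, the black line is the median on that array, and grey lines separate the groups. The sterol genes lie highest on replicate 2 of the Socs3-deleted PBS group, and the triglyceride genes lie lowest on both Socs3-deleted IL-6 arrays.

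Of the 5 mevalonate genes 4 followed the replicate difference of control livers after PBS, the exception being Mvd, and all 5 did in the other 4 groups with such a direction. Mvd, the mevalonate diphosphate decarboxylase, read 119 and 144 in control livers after PBS, 211 and 125 after IL-6, 115 and 230 in Socs3-deleted livers after PBS, 151 and 167 after IL-6, 93.3 and 143 in Ifng-null livers after PBS, and 91.3 and 109 after IFN-γ. Idi1, the isomerase that follows, read 607 and 1473 in Socs3-deleted livers after PBS and 1177 and 1226 after IL-6. Both Hmgcs1 and Idi1 were higher without overlap in Socs3-deleted than in control livers after IL-6, by 0.62 ± 0.51 and 0.58 ± 0.41, and neither passed (adjusted p = 0.949 and 0.882 in limma). Fdps, the farnesyl diphosphate synthase, read 1758 and 1084 in control livers after PBS, 2342 and 993 after IL-6, 1259 and 2507 in Socs3-deleted livers after PBS, 896 and 1910 after IL-6, 1229 and 2257 in Ifng-null livers after PBS, and 770 and 1898 after IFN-γ. Its replicates were further apart in every group than its cytokine and PBS means in any genotype, and its difference in Socs3-deleted livers turned from -0.44 with all arrays to 0.06 without the 2 arrays. Mvk, the mevalonate kinase, stayed between 163 and 222.

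From squalene to cholesterol the first step is that of Sqle, the squalene epoxidase. Sqle read 452 and 507 in control livers after PBS, 842 and 493 after IL-6, 506 and 1098 in Socs3-deleted livers after PBS, 886 and 721 after IL-6, 304 and 460 in Ifng-null livers after PBS, and 410 and 556 after IFN-γ. It was the single sterol gene with a higher mean after IFN-γ (0.35 ± 0.38, adjusted p = 1 in limma). Sc5d, the lathosterol oxidase, read 473 and 304 in control livers after PBS, 347 and 429 after IL-6, 424 and 496 in Socs3-deleted livers after PBS, 232 and 232 after IL-6, 281 and 506 in Ifng-null livers after PBS, and 268 and 401 after IFN-γ. The Socs3-deleted IL-6 pair was lower than every other array, by -0.98 ± 0.31 against PBS, and did not pass (adjusted p = 0.225, limma). The 10 arrays alone gave -0.87. Its second probe set was lower there too and did not pass. Dhcr7, the last enzyme of the chain, read 146 and 80.2 in control livers after PBS, 157 and 98.4 after IL-6, 148 and 195 in Socs3-deleted livers after PBS, 105 and 125 after IL-6, 105 and 179 in Ifng-null livers after PBS, and 81.1 and 105 after IFN-γ. Its groups were apart in Socs3-deleted livers (-0.57 ± 0.35, adjusted p = 0.681 in limma, and -0.37 without the 2 arrays).

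Of the remaining sterol genes, Fdft1, the squalene synthase, ran from 233 to 838, and Lss, which closes the rings of lanosterol, from 153 to 314. Nsdhl and Hsd17b7, which act in the removal of the C4 methyl groups, ran from 317 to 782 and from 52.3 to 124. Ebp, the sterol isomerase, ran from 296 to 561. Their largest differences from PBS after a cytokine were those of Ebp after IL-6 in Socs3-deleted livers (-0.50 ± 0.25) and of Lss after IFN-γ (-0.44 ± 0.20), and neither passed (adjusted p = 0.552 and 0.731 in limma). Ebp differed by -0.47 without the 2 arrays.

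Over the 13 sterol genes the median difference after IL-6 in Socs3-deleted livers was -0.23, with 10 genes lower, using all arrays. Without the 2 arrays it was 0.20, with 10 genes higher. Socs3-deleted against control livers after PBS gave a median of 0.36, with 12 genes higher, using all arrays, and -0.16, with 10 lower, without the 2 arrays. The directions of the branch in both comparisons thus rested on those arrays. In control livers the median after IL-6 was 0.20 with all arrays and -0.03 without them. After IFN-γ, where neither array enters, 12 of 13 were lower with a median of -0.34.

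**Figure D4:**
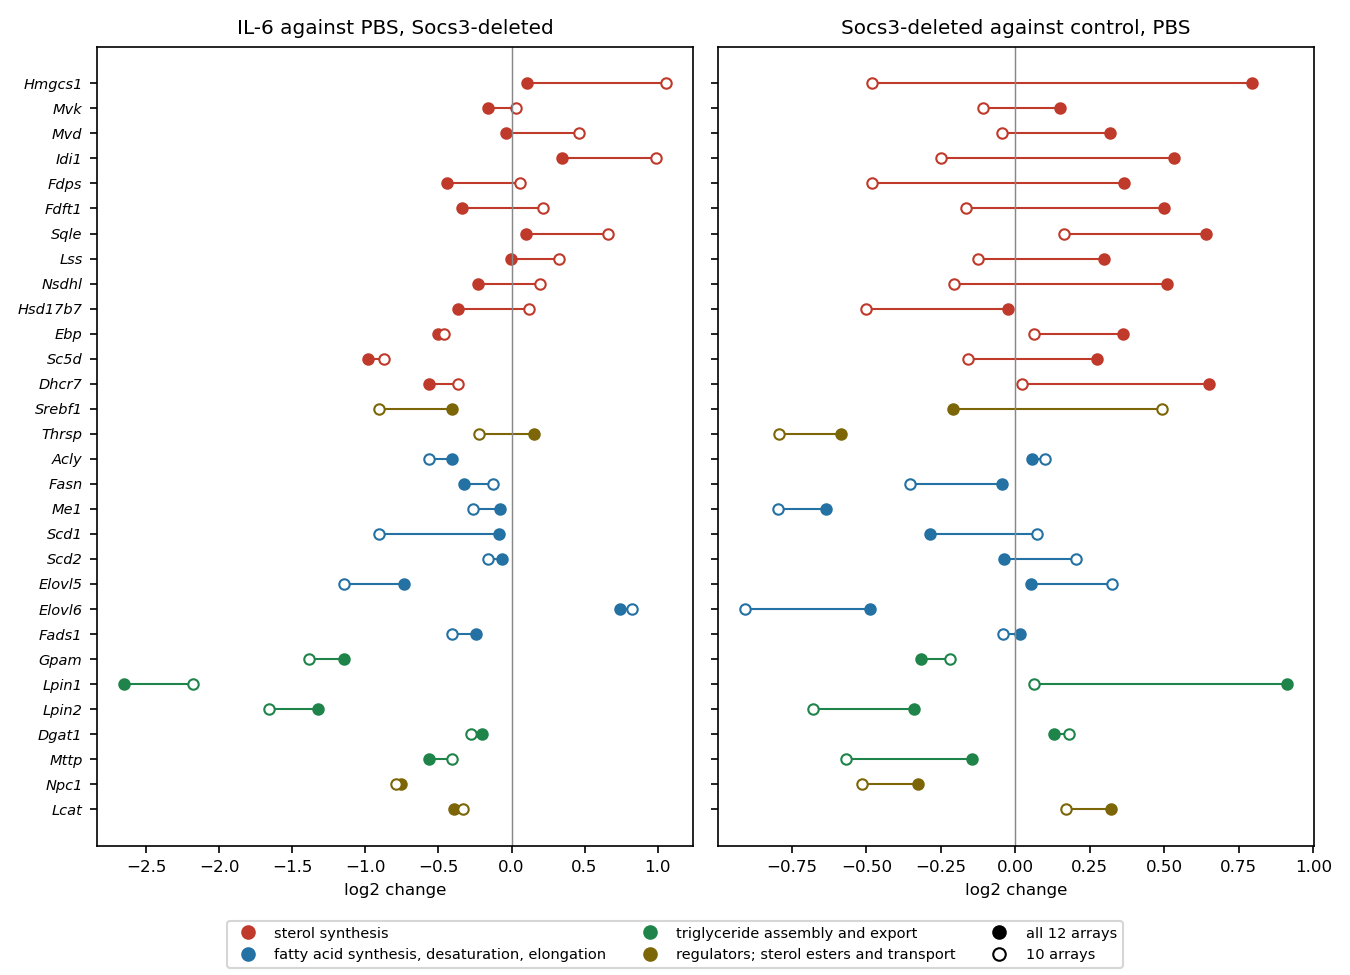
Log2 change of the 30 genes after IL-6 in Socs3-deleted livers (left) and in Socs3-deleted against control livers after PBS (right); filled circles use all 12 arrays, open circles the 10 arrays left without the 2 that carried pancreatic signal, and colours mark the branch. Most sterol genes move to the right in the left panel and to the left in the right panel (Hmgcs1 from 0.11 to 1.06 and from 0.79 to -0.48), while Gpam stays at -1.15 and -1.39 in the left panel.

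The 4 remaining comparisons gave no call among these genes. They were IL-6 in control livers, Socs3-deleted against control livers after PBS, Ifng-null against control livers after PBS, and the difference between both IL-6 responses. Limma called 0%, 0%, 0% and 0.0415% of all probe sets in them. At an unadjusted p under 0.05 in limma, 0, 1, 1 and 4 of the 30 genes differed, against 2.57%, 4.17%, 3.08% and 3.94% of all probe sets. In control livers 20 of the 30 genes had a higher mean after IL-6, with a median of 0.10, and 4 were lower and 0 higher without overlap, against 14.6% and 13% of all probe sets. Without the 2 arrays 11 were higher and the median was -0.12. Socs3-deleted against control livers after PBS had 18 higher means and a median of 0.09 with all arrays, and 11 and -0.14 without the 2. There 3 genes were lower and 5 higher without overlap, against 18.4% and 15.9% of all probe sets. In Ifng-null against control livers after PBS 16 of 30 were higher with a median of 0.03 using all arrays, and 12 with a median of -0.06 without the 2. With all arrays 1 was lower and 2 higher without overlap, against 15.4% and 12.8% of all probe sets. Of the 30 genes 9 had further probe sets, 11 in all, and over the 9 comparisons these gave no other call. The sign was not the same in 32 of 99 cases, mainly in Lcat, Dgat1, Scd2 and the dim Scd1 probe set. These cases include changes of 0 in the second Scd2 probe set, which was below the floor on all Socs3-deleted and Ifng-null arrays.

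Other genes of the same pathways were taken from lists of sterol, fatty acid and triglyceride genes outside the 41, of which 13, 16 and 14 were tested. In the sterol list, after IL-6 in Socs3-deleted livers, 1 rose and 0 fell, where 1.17% of all probe sets were called. That gene was Abca1, the exporter of cholesterol to apolipoprotein A-I. Abca1 read 377 and 345 in control livers after PBS, 616 and 589 after IL-6, 470 and 462 in Socs3-deleted livers after PBS, 889 and 1050 after IL-6, 314 and 368 in Ifng-null livers after PBS, and 304 and 403 after IFN-γ. Both IL-6 pairs were above all other arrays, and the Socs3-deleted pair was above the control pair. The rise in Socs3-deleted livers was 1.05 ± 0.15 (adjusted p = 0.0113, limma), and 0.90 ± 0.11 averaged over both genotypes (adjusted p = 0.00546, limma). Without the 2 arrays these were 1.04 and 0.86, with adjusted p = 0.142 and 0.135 in limma. The first call was also lost without either Socs3-deleted PBS array and without replicate 2 of the Socs3-deleted IL-6 group, at 0.93 to 1.06 (adjusted p of 0.0623 to 0.0837, limma). Without a filter on dim probe sets both Abca1 calls were lost (adjusted p = 0.086 and 0.0589, limma). With only the compared arrays in the fit the first had an adjusted p of 0.16, and of 0.301 with a replicate block there (limma). A second, dimmer Abca1 probe set differed by 0.45 ± 0.47 in Socs3-deleted livers and did not pass (adjusted p = 0.901, limma). Cyp7a1, the rate-limiting enzyme of bile acid synthesis, had the largest difference of the list there, at -1.25 ± 0.60 (adjusted p = 0.534, limma), with 120 and 82.1 after PBS and 41.6 and 42.2 after IL-6, and was at -1.52 without the 2 arrays. Msmo1, the C4-methylsterol oxidase, and Cyp51, the lanosterol demethylase, were also high on replicate 2 of the Socs3-deleted PBS group, at 771 against 281 and 286 against 111.

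In the triglyceride list 1 gene fell in Socs3-deleted against control livers after IL-6 and 1 rose after IFN-γ. Of all probe sets 0.954% were called in the first comparison, 0.0934% lower, and 0.653% in the second. Plin2, which coats lipid droplets, read 2895 and 2170 in control livers after PBS, 3448 and 3532 after IL-6, 2047 and 2641 in Socs3-deleted livers after PBS, 1867 and 1738 after IL-6, 4030 and 4035 in Ifng-null livers after PBS, and 4171 and 4997 after IFN-γ. After IL-6 the Socs3-deleted pair was below the control pair, by -0.95 ± 0.17 (adjusted p = 0.0341, limma). The call was lost without any 1 array of either IL-6 group (-0.90 to -1.01, adjusted p of 0.0862 to 0.272 in limma) and without either Ifng-null PBS array (adjusted p = 0.0552 and 0.0574, limma). Without a filter on dim probe sets the Plin2 call was lost too (adjusted p = 0.167, limma). With only the compared arrays in the fit its adjusted p was 0.209, and 0.419 with a replicate block there (limma). Gpd2, the mitochondrial glycerol-3-phosphate dehydrogenase, read 119 and 134 in Ifng-null livers after PBS and 207 and 212 after IFN-γ, against 82.1 to 110 on the 8 arrays of the other genotypes. The rise was 0.73 ± 0.12 (adjusted p = 0.0281, limma), and the call was lost without any 1 of these 4 arrays (0.64 to 0.81, adjusted p of 0.0889 to 0.25 in limma) and without the 2 arrays with pancreatic signal (adjusted p = 0.0983, limma). It was also lost without either control IL-6 or either Socs3-deleted PBS array (adjusted p of 0.0526 to 0.0539, limma). The Gpd2 call was lost as well without a filter on dim probe sets and with array weights (adjusted p = 0.0978 and 0.132, limma). With only the compared arrays in the fit it had an adjusted p of 0.481, and of 0.178 with a replicate block there (limma). In the fatty acid list limma called 0 of 16 genes in any comparison. Its largest differences after the cytokines were those of Fabp5, a fatty acid binding protein, in control (0.60) and Ifng-null livers (0.79) and of Elovl2, an elongase of long polyunsaturated fatty acids, in Socs3-deleted livers (-0.64). On the 10 other arrays Fabp5 differed by 0.82 in control livers and Elovl2 by -0.66 in Socs3-deleted livers.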

How the data were processed

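Total liver RNA of 12 samples was measured on Affymetrix arrays, and the authors deposited 1 linear intensity per probe set and array. Software, background correction and scaling of the deposited intensity are not given in the sources used here. Groups came from the labels. With R 4.3.3 and limma 3.58.1, log2 was taken after raising every intensity under 33.0, the overall 25th percentile, to that value, which understates changes near it. Of 12488 probe sets, 66 controls were left out and 9641 exceeded this floor on 2 or more arrays. A model of 6 group means (6 residual and 3.38 prior degrees of freedom) gave 9 comparisons, two-sided, with Benjamini-Hochberg adjustment over 9641 probe sets and a threshold of 0.05. The number of arrays limits the precision. GEO's platform annotation gave 1 symbol for 10855 probe sets and several for 396, from which no gene was named. The probe set with the highest mean log2 stands for a gene. Every array's value is given for a gene with a call, for the gene with the largest difference of its branch in any of the 3 cytokine responses, and for Srebf1. Members, lists and this rule were chosen with earlier results of these data known. Promoters are RefSeq's (GRCm38.p6). The fit was tested on simulated data. Alternatives covered scaling, floors, filters, array weights, the intensity trend, a replicate block, fewer groups and arrays left out.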

Additional observations from a re-analysis of the deposited data

Results flagged for a closer look

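In 2 of the 30 genes the Socs3-deleted arrays lay on opposite sides of the control arrays under the 2 injections. Of all probe sets, 18.4% were lower and 15.9% higher without overlap in Socs3-deleted livers after PBS. After IL-6 these shares were 23.2% and 17.9%. Opposite sides were not counted over all probe sets, so these 2 genes cannot be set apart from the rest of the array. Both Lpin1 values of Socs3-deleted livers were above both control values after PBS and below both after IL-6, and the difference between those contrasts was -2.39 on the log2 scale (adjusted p = 0.999, limma), and -1.54 without the 2 arrays with pancreatic signal. For Ebp the same was seen, with a difference of -0.60 (adjusted p = 0.999, limma), and -0.30 without the 2 arrays. Neither difference passed the test. Lpin1 has the widest replicate spread of the triglyceride genes, and its PBS values include an array with pancreatic signal, whose part was not tested.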

How the results depend on the processing

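Each result was recomputed under 24 alternatives. The number of these genes' probe sets called stayed 0 in all of them for IL-6 in control livers, for the difference between IL-6 responses, for IFN-γ, and for both genotype comparisons after PBS. The 4 comparisons with a call lost it without a filter on dim probe sets (0 called in each), with only the compared arrays in the fit (0 in each), and with a replicate block in such a fit (0 in each). Without the 2 pancreatic arrays, 0 were called in the IL-6 response of Socs3-deleted livers and in both averages. With a replicate block over all arrays, 2 were called in that response and 1 in the Socs3 average over injections. A floor at the 50th percentile gave 1 in the Socs3 average, and quantile normalization 0 in the IL-6 average. With 1 array left out, counts ran from 0 to 1 in the IL-6 response of Socs3-deleted livers and in the IL-6 average, and from 0 to 2 in both Socs3 comparisons. Signs were followed only for genes with a call or with the largest difference of their branch in a comparison. Among these, the sign of Fdps after IL-6 in Socs3-deleted livers turned without the 2 arrays (0.055). Other sterol genes turned there too, since 10 of the 13 were lower with all arrays and 10 were higher without the 2. With 1 array left out, signs turned for Fdps (-0.99 to 0.10) and Srebf1 (-0.96 to 0.14) after IL-6 in Socs3-deleted livers. They also turned in control livers for Lcat (-0.040 to 0.40), Lpin2 (-1.03 to 0.31), Mvd (-0.058 to 0.69) and Thrsp (-0.93 to 0.24). The cause was not tested. The labels do not say what replicate numbers share. Over 15 pairs of groups the correlation of same-numbered deviations ran from -0.25 to 0.66 (both Ifng-null groups), with 8 above 0.1, so pairing was not taken as given. A crossed block for Ifng-null against control livers called 0. That fit and the block in a fit of only the compared arrays were chosen after seeing the data.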
